A study of Saccharomyces cerevisiae with 22 samples.

Results

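The comparison between feed gas of 0.5% and of 2.8% oxygen rested on 8 of the 22 arrays of the series, 4 at each level, and on all 5449 genes with a named probe set. The arrays were taken by the oxygen level in their labels, and all changes are given as log2 level at 2.8% minus log2 level at 0.5% oxygen. Saccharomyces cerevisiae CEN.PK113-1A, a prototrophic haploid strain of mating type alpha, was grown in glucose-limited chemostats at one growth rate, temperature and pH, in medium that contained ergosterol and Tween 80 at both oxygen levels. RNA from steady states was hybridised to GeneChip Yeast Genome 2.0 arrays, and the deposited values are log2 intensities after Robust Multichip Average (RMA) normalisation. The study's methods give 2 parallel cultivations at each of these levels, so the 4 arrays of a level came from fewer chemostats than arrays. It is not labelled which of them came from the same vessel. The p-values therefore partly measure the spread between samples of a single culture, and leaving out 1 array need not leave out a culture. Cultures at 2.8% oxygen, unlike those at 0.5%, received an inoculum supplement of growing cells against metabolic oscillations, and this difference cannot be told apart from the oxygen level. Cells of replicates 2 and 4 at 2.8% oxygen were spun down directly, whereas the other 6 samples were collected in cold phosphate buffer.

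In the 8 arrays the log2 levels of 5 genes that mark alpha cells lay between 11.52 and 14.20, and 4 of 7 genes that mark a cells were dim. Dim stands here for a mean under 6.73, the level below which the lowest 10% of genes lay. Replicate 4 at 2.8% oxygen stood apart. In it, 214 genes differed at least 2-fold from the mean of the other 3 arrays of its level, against 2 to 6 genes for each of those 3. The fit of all genes and the counts of each list were therefore also computed without this array. The gene lists used below were drawn up with earlier results of these data known. Their counts, shares and medians are therefore description only, also where they are set against all genes. RMA sets all arrays to the same distribution, so a shift of all transcripts would not be seen, and fewer cells with a transcript and less transcript per cell cannot be told apart.

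When glucose limits growth, yeast that can respire oxidises not only the sugar but also ethanol, acetate and other small acids that fermentation leaves behind. The enzymes for this use are made when glucose repression is weak, under the control of the protein kinase Snf1 and the activators Cat8 and Adr1. Fatty acids are broken down in peroxisomes by an oxidase that consumes oxygen directly, and formate, propionate and proline can be oxidised as well.

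Between 0.5 and 2.8% oxygen 309 genes differed (5.67% of those tested), most of them moderately. Higher levels at 2.8% oxygen were called for 141 genes (2.59%) and lower levels for 168 genes (3.08%), by limma with a Benjamini-Hochberg adjusted p under 0.01. The median change of the called genes was 1.49-fold. At least 2-fold changes were found for 33 of the genes called higher (0.606% of all genes) and for 36 of those called lower (0.661%). In 299 of the called genes (5.49% of all) the 4 arrays of one level did not overlap the 4 of the other, while 19.2% of all genes were separated in this way. Without replicate 4 at 2.8% oxygen, 319 genes (5.85%) were called. Of these, 164 genes were higher (3.01%) and 155 lower (2.84%). Of the 309 genes, 234 were also called without replicate 4 and 75 were not, while 85 further genes were called only without it. All 309 kept their direction. With buffer-collected samples alone, which leaves 2 arrays at 2.8% oxygen, 122 genes were called (2.24%), 61 in each direction (1.12%), and again all 309 kept their direction. The directly spun replicates 2 and 4 at 2.8% oxygen, set against replicates 1 and 3, gave 0 calls by limma (0%), with 185 genes at an unadjusted p under 0.05 (3.4%). As these 2 arrays correlated less with each other (r = 0.972) than replicates 1 and 2 did (r = 0.997), the test says little about the mode of collection. Of the single arrays, leaving out replicate 3 at 0.5% oxygen lowered the counts most, to 69 higher and 82 lower. With each of the 8 arrays left out in turn, 59 of the 141 and 76 of the 168 calls were kept every time. Fitting the 2 levels alone, without the spread of the other levels, gave 138 calls, of which 115 were among the 309.

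**Figure D1:**
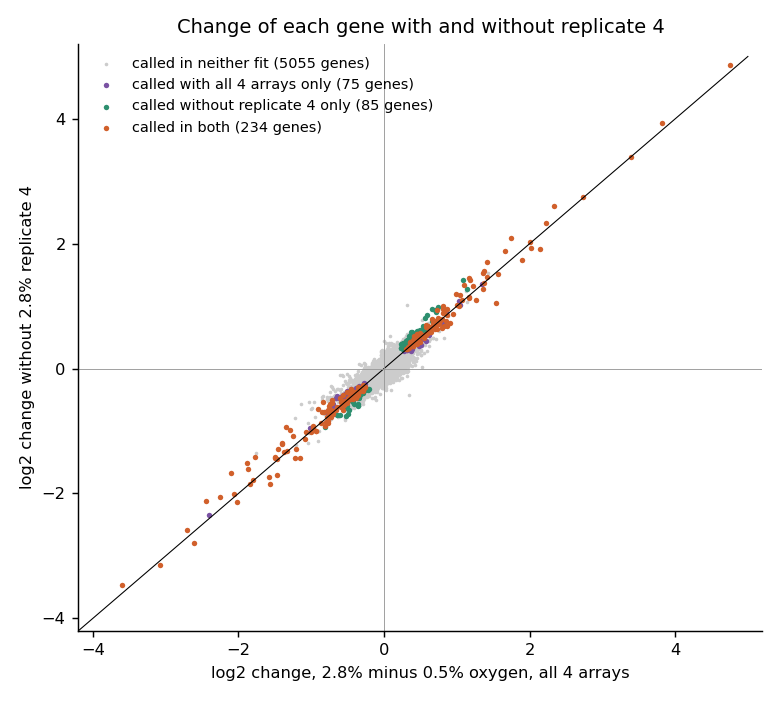
Log2 change of each of 5449 genes with all 4 arrays at 2.8% oxygen (horizontal) and without its replicate 4 (vertical), each point a gene coloured by the fits in which it was called, with the line of equality. The 234 genes called in both fits lie near the line, and most of the 75 and 85 genes called in one fit only have smaller changes, OPT2 at -2.41 being an exception.

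Large rises were found among genes for the use of ethanol, acetate and other small acids. ADH2 encodes the alcohol dehydrogenase that oxidises ethanol. Its log2 levels at 0.5% oxygen were 9.15, 8.95, 9.39 and 8.19 in replicates 1 to 4, and at 2.8% oxygen 12.73, 12.78, 13.07 and 12.40. All arrays at 2.8% oxygen were far above all arrays at 0.5%, and the change was 14.2-fold (log2 change 3.82, standard error 0.45, adjusted p = 7.0e-06). ATO3, a gene for a plasma membrane protein related to the acetate carrier, showed the tightest separation. It was measured at 8.50, 8.43, 8.29 and 8.44 with the lower and at 11.69, 11.63, 12.10 and 11.80 with the higher oxygen provision. Arrays of a level lay close together, and ATO3 changed by 3.39 (standard error 0.10, adjusted p = 1.1e-15). The related ATO2 rose by 1.16 (adjusted p = 7.1e-07). ADY2, the acetate carrier gene itself, was dim at 0.5% oxygen, where its levels were 6.59, 6.05, 5.91 and 5.10, against 7.37, 8.66, 7.98 and 6.63 at 2.8%. Its lowest array at 2.8% oxygen, replicate 4, was only just above its highest at 0.5%. The call (log2 change 1.75, adjusted p = 0.0090) was lost when any of 6 arrays was left out, with an adjusted p of up to 0.038 without replicate 2 at 2.8% oxygen.

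ACS1, the acetyl-CoA synthetase gene that is repressed by glucose, had levels of 9.63, 10.05, 9.84 and 9.50 at 0.5% and of 11.59, 11.54, 11.78 and 10.76 at 2.8% oxygen. Replicate 4 was the lowest at each level, and the groups did not overlap (log2 change 1.66, standard error 0.17, adjusted p = 7.4e-07). JEN1, which encodes the carrier for lactate and pyruvate, rose by 1.17 (adjusted p = 2.1e-07), from a range of 10.77 to 11.30 to one of 12.14 to 12.38. Smaller rises were called for both major acetaldehyde dehydrogenase genes. The mitochondrial ALD4 changed by 0.47 (adjusted p = 2.1e-05) and the cytosolic ALD6 by 0.43 (adjusted p = 0.0030). In all, 9 of 23 measured genes for ethanol and acetate metabolism were called higher and 1, ADH3 for the mitochondrial alcohol dehydrogenase, lower (log2 change -0.26, adjusted p = 0.0059). Together they were 43.5% of the list, against 5.67% of all genes. The median of the list was -0.00, against 0.00 for all genes. ADH6, ALD6, ADY2 and ADH3 each lost the call without at least 1 array, with adjusted p values of up to 0.038, and the other 6 kept it.

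**Figure D2:**
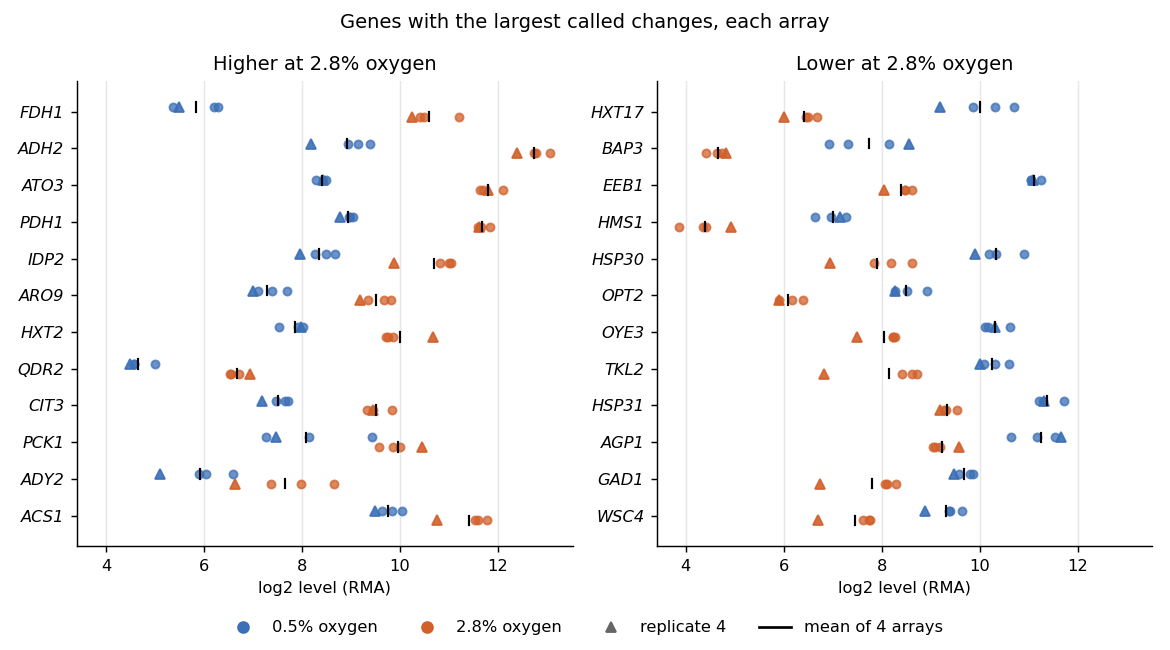
Log2 levels of the 12 genes with the largest called rise (left) and the 12 with the largest called fall (right) between 0.5% oxygen (blue) and 2.8% oxygen (orange), with circles for replicates 1 to 3, triangles for replicate 4 and black bars for means of 4 arrays. The groups do not overlap for any of these genes, which was a condition of their choice, and replicate 4 at 2.8% oxygen is the lowest orange point for OYE3, TKL2, GAD1 and WSC4, among others.

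The 3-carbon compound propionate is degraded through the methylcitrate cycle of the mitochondrion, and 4 of the 5 measured genes of this list were called higher (80%, against 2.59% of all genes). The list includes PDR12, which is no enzyme of the cycle and is also in the Ehrlich list. Like the other lists, the methylcitrate list was drawn up with earlier results of these data known, so its count and median are description only. PDH1 encodes methylcitrate dehydratase. Its levels were 8.97, 8.97, 9.05 and 8.78 at 0.5% and 11.59, 11.66, 11.84 and 11.61 at 2.8% oxygen, which is a 6.64-fold change (log2 change 2.73, standard error 0.12, adjusted p = 1.7e-12). CIT3, the gene for a mitochondrial citrate synthase that also acts on propionyl-CoA, was expressed at 7.71, 7.48, 7.65 and 7.18 and at 9.33, 9.46, 9.84 and 9.44 (log2 change 2.01, standard error 0.19, adjusted p = 3.3e-07). In both genes replicate 4 at 2.8% oxygen lay within the range of the other arrays of its level. ICL2, for the lyase that ends the cycle, rose by 1.38 (adjusted p = 1.6e-05), and PDR12, an ATP-driven pump that exports weak organic acids from the cell, by 1.38 as well (adjusted p = 2.1e-07). The fifth gene, ACO1 for the aconitase that is shared with the TCA cycle, changed by 0.16 (adjusted p = 0.14). The median of the list was 1.38, and 1.56 without replicate 4.

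In the glyoxylate cycle and gluconeogenesis, 4 of 15 measured genes were called higher (26.7%, against 2.59% of all genes) and none lower. The median change was 0.80, against 0.00 for all genes. IDP2, the cytosolic NADP-dependent isocitrate dehydrogenase, was measured at 8.50, 8.67, 8.27 and 7.95 at 0.5% and at 11.00, 11.04, 10.82 and 9.88 at 2.8% oxygen. The groups were separate although replicate 4 was the lowest in each (log2 change 2.34, standard error 0.22, adjusted p = 3.0e-07). PCK1 encodes phosphoenolpyruvate carboxykinase, the entry to gluconeogenesis. Its levels spread widely at 0.5% oxygen, with 8.14, 7.26, 9.44 and 7.47, and lay at 9.57, 10.01, 9.86 and 10.44 at 2.8%. Replicate 3 at 0.5% oxygen came close to the lowest array at 2.8%, but the call (log2 change 1.89, adjusted p = 0.00099) was kept with each array left out. With the buffer-collected samples alone its adjusted p was 0.025. ACS1, described above, and MDH2 for the cytosolic malate dehydrogenase (log2 change 1.10, adjusted p = 0.00099) were the other 2 called genes. The malate synthase gene MLS1, which has no place among the genes chosen by rule and is given because it completes the cycle, changed by 1.43 (adjusted p = 0.021), and ICL1 for isocitrate lyase by 0.41 (adjusted p = 0.38).

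Peroxisomal beta-oxidation contributed 10 of the genes called higher, out of 18 measured, and none of those called lower. That was 55.6% of the list, against 2.59% of all genes called higher. The median change of the list was 0.62, and 0.83 without replicate 4. PXA1 encodes a subunit of the transporter that brings activated fatty acids into the peroxisome. Its levels were 8.88, 8.96, 8.91 and 8.56 at 0.5% oxygen, and 10.26, 10.43, 10.39 and 9.65 at 2.8% (log2 change 1.36, standard error 0.17, adjusted p = 1.8e-05). FAA2, which activates fatty acids to their CoA esters, rose by 1.22 (adjusted p = 3.0e-05). For each, replicate 4 had the lowest level at 2.8% oxygen but was still above every array at 0.5%. The oxygen-consuming first step is catalysed by the oxidase Pox1, whose transcript rose by 0.82 (adjusted p = 0.0023), and its product hydrogen peroxide is removed by the peroxisomal catalase Cta1, whose transcript rose by 1.17 (adjusted p = 0.0018). FOX2, for the multifunctional second enzyme of the pathway, rose by 0.73 (adjusted p = 0.0084), and here the groups overlapped. Its replicate 4 at 2.8% oxygen, at 11.15, was below the highest array at 0.5%, at 11.24, and without replicate 4 the change was 0.94 (adjusted p = 0.00020). The thiolase gene POT1 changed by -0.05 (adjusted p = 0.93).

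Rises were also called for DCI1 (1.18) and ECI1 (0.98), which encode a protein related to enoyl-CoA isomerase and the isomerase itself, and for IDP3 (0.74), PEX11 (0.58) and ANT1 (0.39), which serve peroxisomal NADPH, peroxisome division and the peroxisomal supply of ATP. Of the 10 calls, those of POX1, PXA1, FAA2 and CTA1 were kept with each array left out. The calls of the other 6 were lost without at least 1 array, with an adjusted p of up to 0.036 (IDP3 without replicate 3 at 2.8% oxygen). Without replicate 4 at 2.8% oxygen, 13 members were called higher, and with the buffer-collected samples alone 9. Of 23 genes for the assembly of peroxisomes 0 were called by limma, with 6 higher and 2 lower at an unadjusted p under 0.05, and their median change was 0.03.

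**Figure D3:**
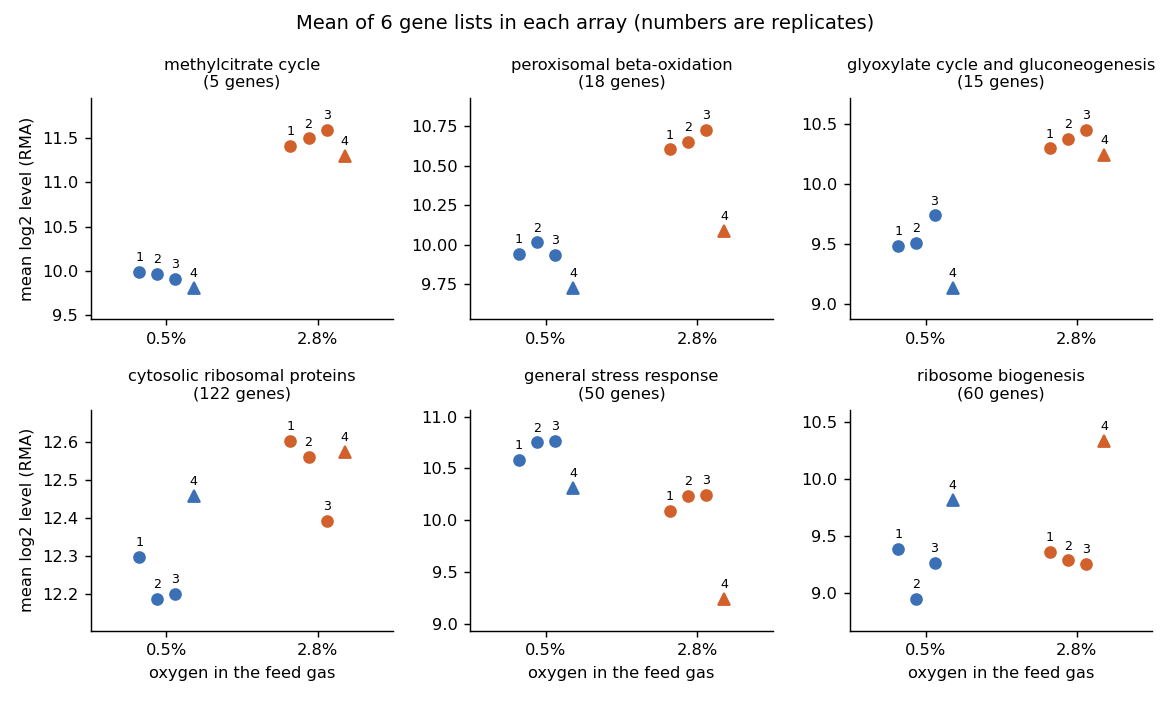
Mean log2 level of the measured genes of 6 lists in each array at 0.5% oxygen (blue) and 2.8% oxygen (orange), with replicate numbers beside the points and triangles for replicate 4. Means for the methylcitrate cycle, beta-oxidation and the glyoxylate cycle are higher at 2.8% oxygen in all 4 arrays, and replicate 4 at 2.8% oxygen is the lowest of all arrays for the general stress response, at 9.24, and the highest for ribosome biogenesis, at 10.34.

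The single largest rise was that of FDH1, which encodes formate dehydrogenase, an enzyme that oxidises formate to carbon dioxide with NAD. Its levels of 6.20, 6.29, 5.37 and 5.48 at 0.5% oxygen were dim, and at 2.8% oxygen they were 10.40, 10.50, 11.21 and 10.25. The change of 27.0-fold (log2 change 4.75, standard error 0.32, adjusted p = 3.0e-09) therefore started from a dim level. GCV2, for a subunit of the glycine cleavage complex, rose by 0.86 (adjusted p = 0.0020). No other gene of 13 for formate and one-carbon metabolism was called, so that the share was 15.4%, against 5.67% of all genes.

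ARO9 encodes an aminotransferase that starts the catabolism of aromatic amino acids. Its levels were 7.38, 7.69, 7.10 and 7.00 at 0.5% and 9.36, 9.68, 9.83 and 9.19 at 2.8% oxygen (log2 change 2.22, standard error 0.19, adjusted p = 6.7e-08), and the groups were far apart. BAT2, the cytosolic branched-chain aminotransferase, rose by 0.83 (adjusted p = 0.00038). With PDR12, these were the 3 called genes of 15 (20%, against 5.67% of all genes) in the Ehrlich pathway. By this pathway amino acids are turned into fusel alcohols and acids. The median of that list was -0.01. Of 19 genes for proline and arginine metabolism 2, PUT1 and GAP1, were called higher (10.5%, against 2.59% of all genes) and 0 lower. In this list 10 genes had higher means at 2.8% oxygen, and the median change was 0.06 with and -0.06 without replicate 4. PUT1, the mitochondrial proline oxidase, had levels of 11.28, 11.42, 10.99 and 11.03 at 0.5% oxygen and of 12.57, 12.65, 12.88 and 12.90 at 2.8% (log2 change 1.57, standard error 0.13, adjusted p = 6.9e-08). The proline permease gene PUT4 changed by 1.14 (adjusted p = 0.011) and PUT2, for the next enzyme of proline breakdown and outside the choice by rule, by 0.25 (adjusted p = 0.12). GAP1, the general amino acid permease, rose by 0.85 (adjusted p = 0.0079), but this call was lost with any 1 of the 8 arrays left out, with an adjusted p of up to 0.027 (without replicate 3 at 0.5% oxygen).

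Genes for transporters that import amino acids and peptides, and for the sensor of external amino acids, formed a list with calls in both directions. Of 25, 3 were higher and 6 lower (36% called, against 5.67% of all genes), with a median change of -0.07. Several of these genes are induced by external amino acids through the membrane sensor Ssy1 with its partners Ptr3 and Ssy5. BAP3, a permease for branched-chain and other amino acids, was measured at 7.31, 6.93, 8.15 and 8.56 at 0.5% oxygen and was dim at 2.8%, at 4.74, 4.63, 4.42 and 4.82 (log2 change -3.08, standard error 0.35, adjusted p = 2.9e-06). AGP1, for a permease of broad specificity, had levels of 11.16, 10.64, 11.53 and 11.66 and then of 9.19, 9.08, 9.05 and 9.58 (log2 change -2.02, standard error 0.31, adjusted p = 0.00018). Both genes were lower in every array at 2.8% oxygen than in any at 0.5%, and their arrays at 0.5% oxygen spread more than those at 2.8%. PTR2, the carrier of di- and tripeptides, fell by 1.49 (adjusted p = 1.7e-05), SAM3, the S-adenosylmethionine permease, by 0.94 (adjusted p = 8.3e-05) and TAT1, for tyrosine and tryptophan among others and dim at both levels, by 0.77 (adjusted p = 3.0e-05). The sensor partner gene PTR3 changed by -0.28 (adjusted p = 0.0083).

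BAP2, the close relative of BAP3, went the other way, from a range of 10.22 to 10.54 to one of 10.93 to 11.10 (log2 change 0.60, adjusted p = 0.00060), as did GAP1 and MMP1, the S-methylmethionine permease (log2 change 0.68, adjusted p = 0.0063). The calls of BAP2 and of the 5 genes lower other than PTR3 were kept with each array left out. Those of PTR3 and MMP1 were lost without 5 and 7 of the arrays, with adjusted p values of up to 0.034 and 0.028. With the buffer-collected samples alone, 6 genes of the list were called lower and 0 higher. Of 45 genes for amino acid synthesis, 1 was called higher and 1 lower (4.44%, near the share of all genes). These were SER3, for the first step of serine synthesis (log2 change 0.91, adjusted p = 0.00019), and ARO1, for 5 steps of the shikimate pathway (log2 change -0.51, adjusted p = 0.00019).

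Hexose carriers changed one by one. HXT2, a carrier with high affinity for glucose, had levels of 7.91, 8.02, 7.54 and 7.98 at 0.5% oxygen and of 9.85, 9.76, 9.71 and 10.68 at 2.8%, where replicate 4 was higher than the rest (log2 change 2.14, standard error 0.25, adjusted p = 7.1e-06). RGT2, which encodes a glucose sensor of the plasma membrane, rose by 0.73 (adjusted p = 0.00099). HXT10 rose by 0.81 (adjusted p = 0.0083), with overlapping groups and a call that was lost without any of 6 arrays (adjusted p up to 0.034).

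The largest fall of all genes was that of HXT17. It was measured at 10.32, 10.69, 9.86 and 9.18 at 0.5% oxygen, and at 2.8% it was dim, at 6.67, 6.46, 6.50 and 6.00 (log2 change -3.60, standard error 0.29, adjusted p = 2.3e-08). This probe set matches more than 1 transcript, so part of the signal may come from close relatives of HXT17. A further probe set for the gene, also shared and dim, fell by 1.87 (adjusted p = 3.1e-06), and HXT13, a near copy that has a probe set of its own, dim at both levels, changed by -1.03 (adjusted p = 0.018). DSF1 is homologous to mannitol dehydrogenases and lies beside HXT13 in the S288C reference (assembly R64). It was chosen after its values were seen, and its shared probe set gave 10.10, 10.38, 9.86 and 9.63 at 0.5% oxygen against 8.20, 8.18, 8.24 and 8.17 at 2.8% (log2 change -1.79, adjusted p = 7.6e-09). Of the 20 measured hexose transport genes 20% were called, against 5.67% of all genes, and the median of the list was -0.14.

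Of 21 genes for glycolysis 3 were called (14.3%, against 5.67% of all genes). The hexokinase gene HXK2 was higher (log2 change 0.64, adjusted p = 5.0e-05), and the enolase gene ENO1 (log2 change -0.45, adjusted p = 0.0016) and EMI2, a relative of glucokinase (log2 change -0.54, adjusted p = 0.0058), were lower. The call of EMI2 was lost without 4 of the arrays (adjusted p up to 0.025), those of HXK2 and ENO1 were kept. In the pentose phosphate pathway 3 of 13 genes were called (23.1%). SOL3, for 6-phosphogluconolactonase, rose by 0.49 (adjusted p = 0.0013). ZWF1, for the first enzyme of the oxidative branch, changed by -0.49 (adjusted p = 0.0042, lost without 3 arrays). TKL2 encodes the minor transketolase. Its levels were 10.09, 10.32, 10.59 and 10.00 at 0.5% and 8.41, 8.62, 8.72 and 6.81 at 2.8% oxygen, where replicate 4 was by far the lowest. The change was -2.11 with this array (adjusted p = 0.00012) and -1.67 without it (adjusted p = 3.7e-05).

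**Figure D4:**
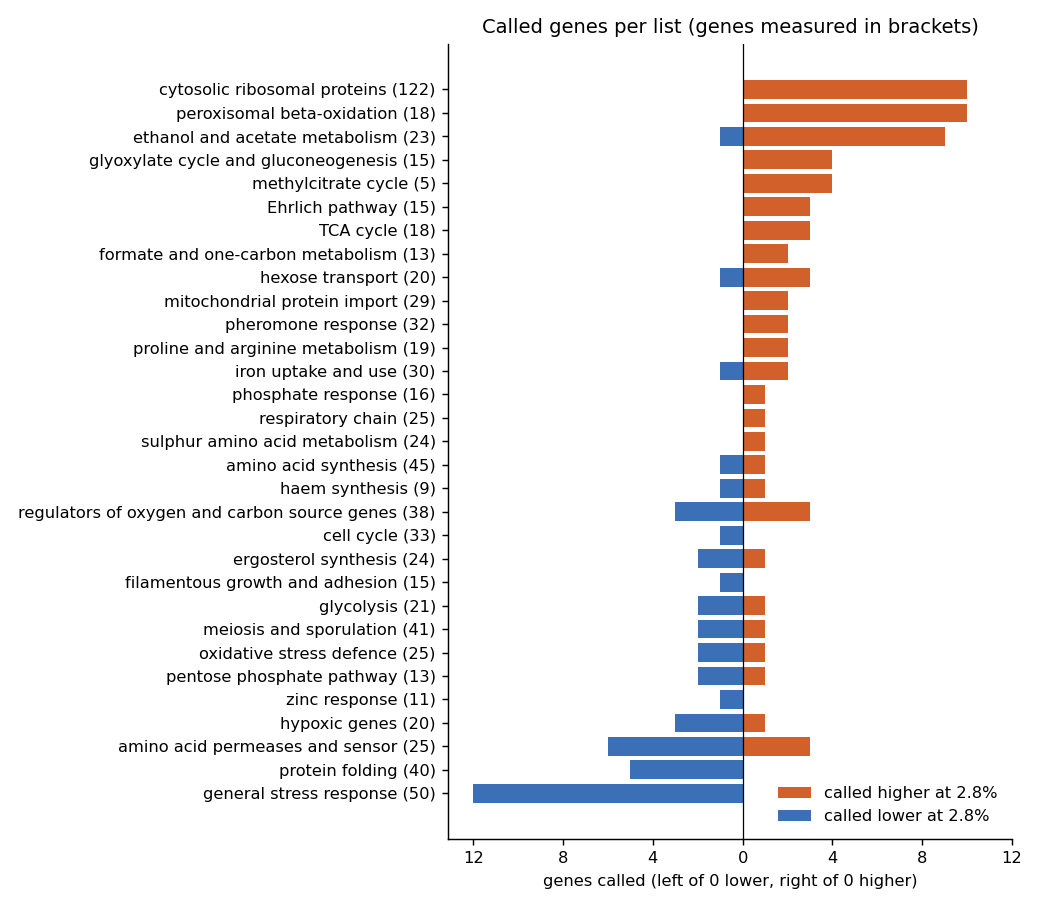
Number of genes called higher (orange, right of 0) and lower (blue, left of 0) at 2.8% oxygen in the 31 lists with at least 1 call, the number of measured genes being given in brackets. Beta-oxidation has 10 genes called higher and none lower, and the general stress response 12 called lower and none higher; the lists differ in length and share some genes.

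General stress genes, which are induced by the activators Msn2 and Msn4 in many adverse conditions, gave 12 calls on the lower side among 50 measured (24%, against 3.08% of all genes called lower) and 0 on the higher side, and the other 38 did not pass the test. The median change was -0.62, and it moved with 1 array. The mean of the list was 10.58, 10.75, 10.76 and 10.31 at 0.5% oxygen and 10.09, 10.24, 10.24 and 9.24 at 2.8%. Each array at 2.8% oxygen was below each at 0.5%, and replicate 4 was lower still by a wide margin. Without it the median was -0.34, with 9 genes called lower and 1 higher, the latter being SPG4, a gene needed for survival in stationary phase (log2 change 1.42, adjusted p = 0.00023). With the buffer-collected samples alone, 4 were called lower and 1 higher. At 20.9% oxygen the mean of the list was 11.75 and at 0% it was 9.63.

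HSP31, for a glyoxalase and chaperone of the DJ-1 family, had the lowest adjusted p of the list. Its levels were 11.21, 11.29, 11.73 and 11.30 at 0.5% oxygen and 9.27, 9.31, 9.54 and 9.20 at 2.8% (log2 change -2.05, standard error 0.17, adjusted p = 3.2e-08), with replicate 4 close to the other arrays of its level. HSP30, for a small membrane protein that restrains the plasma membrane ATPase in stress, was measured at 10.34, 10.20, 10.91 and 9.91 and at 7.83, 8.62, 8.20 and 6.94 (log2 change -2.44, adjusted p = 0.0021). Its arrays spread widely at both levels, and the call was lost without replicate 3 at 0.5% oxygen (adjusted p = 0.012) and with the buffer-collected samples alone (adjusted p = 0.020). PHM7 (-1.40), GPP2, for a glycerol phosphatase (-0.87), and HSP12, for a membrane-stabilising protein (-0.71), kept their calls with each array left out. The calls of SIP18 (-1.35), YGP1 (-0.91), SSA4 (-0.78), SSA3 (-0.71), HSP78 (-0.61) and SOD2 (-0.38) were lost without at least 1 array, with adjusted p values of up to 0.034.

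Protein folding genes gave 5 called lower of 40 (12.5%, against 3.08% of all genes called lower) and a median of -0.19. The 5 were SSA3, SSA4, HSP60, HSP78 and MDJ1, which encode cytosolic and mitochondrial chaperones. Without replicate 4 the count was 4, and with buffer-collected samples alone it was 0. Only MDJ1 (log2 change -0.60, adjusted p = 0.00030) was called with each array left out. Trehalose and glycogen genes had 0 calls by limma among 20, with 8 lower at an unadjusted p under 0.05, and a median of -0.26, which was -0.13 without replicate 4. In oxidative stress defence, 1 of 25 genes was called higher, the catalase gene CTA1 described above, and 2 lower, SOD2 for the mitochondrial superoxide dismutase and AHP1 for a thioredoxin peroxidase. Their share was 12%, against 5.67% of all genes. AHP1 was at 12.71, 12.71, 12.73 and 11.53 at 2.8% oxygen, against 13.12 to 13.34 at 0.5%. Its change was -0.83 with replicate 4 and -0.54 without it, with adjusted p values of 0.0035 and 0.00013. The calls of SOD2 and AHP1 were lost without 7 and 2 of the arrays.

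Ribosomal genes differed in kind. Of 122 genes for cytosolic ribosomal proteins, 120 had higher mean levels at 2.8% oxygen, the median change was 0.23 with and without replicate 4, and 10 were called higher and 0 lower. The 10 calls were 8.20% of the list, against 2.59% of all genes called higher. The mean of the list was 12.30, 12.19, 12.20 and 12.46 at 0.5% oxygen and 12.60, 12.56, 12.39 and 12.57 at 2.8%. The groups overlapped, because replicate 4 at 0.5% oxygen was above replicate 3 at 2.8%. With the buffer-collected samples alone 0 were called. RPL11A, for a protein of the large subunit, rose by 0.61 (adjusted p = 0.0016) and was the only member to keep its call with each array left out. Many of these genes have near-identical copies, so the members are not independent measurements. For ribosome biogenesis genes, whose products build the ribosome, the sign of the median rested on 1 array. Of 60, 0 were called by limma (1 at an unadjusted p under 0.05), and the median change was 0.21 with replicate 4 at 2.8% oxygen but -0.07 without it. Their mean was 9.39, 8.94, 9.26 and 9.82 at 0.5% oxygen and 9.36, 9.29, 9.25 and 10.34 at 2.8%, so that replicate 4 was the highest array at each level. Mitochondrial ribosomal proteins and the proteasome had 0 calls by limma among 54 and 33 genes, with 1 and 2 higher and 3 and 4 lower at an unadjusted p under 0.05.

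Of 25 genes for the respiratory chain 1 was called (4.00%, near the 5.67% of all genes), NDE1 for the external NADH dehydrogenase of the inner membrane. Its levels were 11.96, 12.06, 11.89 and 11.95 at 0.5% and 12.49, 12.52, 12.56 and 12.61 at 2.8% oxygen (log2 change 0.58, standard error 0.08, adjusted p = 2.1e-05), a small change between tight groups. Of 17 genes for ATP synthase 0 were called by limma, also 0 at an unadjusted p under 0.05, and the medians of these lists were 0.06 and 0.02. In the TCA cycle, 3 of 18 genes were called (16.7%), all of them higher. Besides CIT3 these were IDH1 (log2 change 0.65, adjusted p = 4.1e-05) and IDH2 (log2 change 0.42, adjusted p = 0.0061), for the 2 subunits of the mitochondrial NAD-dependent isocitrate dehydrogenase. IDH2 lost its call without any of 7 arrays (adjusted p up to 0.022). Among 29 genes for protein import into mitochondria, TIM21 (log2 change 0.58, adjusted p = 0.00040) and PAM18 (log2 change 0.41, adjusted p = 0.0083, lost without 7 arrays) were higher, both being parts of the inner membrane translocase. At 6.90% of the list, these calls were near the share of all genes.

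Of 20 genes known as hypoxic, 1 was called higher and 3 lower (20% called, against 5.67% of all genes), and the median was -0.09. The gene called higher was SUT1 (log2 change 1.54, described with the regulators below), and those called lower were COX5B, OYE3 and HMG2. The mean of this list was 10.58 at 0% oxygen, 9.36 at 0.5%, 9.19 at 2.8% and 9.31 at 20.9%. COX5B, which encodes the hypoxic isoform of a cytochrome c oxidase subunit, was measured at 7.96, 8.15, 8.06 and 7.76 at 0.5% oxygen and at 7.27, 7.29, 7.31 and 6.65 at 2.8% (log2 change -0.85, standard error 0.13, adjusted p = 0.00015). Replicate 4 at 2.8% oxygen was the lowest, and the change without it was -0.69. OYE3, an NADPH oxidoreductase of the old yellow enzyme family, fell from 10.17, 10.11, 10.62 and 10.32 to 8.23, 8.23, 8.27 and 7.49 (log2 change -2.25, standard error 0.21, adjusted p = 2.3e-07). Of the cell wall mannoprotein genes of the DAN, TIR and PAU families, which anaerobic cells transcribe strongly, 0 of 20 were called by limma, with 4 lower at an unadjusted p under 0.05. Their median was nevertheless -0.40, and 19 of the 20 had lower means at 2.8% oxygen. Many PAU genes are near-identical, and their probe sets cannot keep them apart.

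The ergosterol pathway, several steps of which use oxygen, had 1 gene called higher and 2 lower among 24 (12.5%, against 5.67% of all genes). MVD1, for an early step, changed by 0.48 (adjusted p = 0.0085), ERG25, for an oxygen-using demethylation, by -0.47 (adjusted p = 0.0072) and HMG2, for the isoform of HMG-CoA reductase favoured in hypoxia, by -0.51 (adjusted p = 0.0072). These 3 calls were lost without 5 to 7 of the arrays, with adjusted p values of up to 0.034. Of 9 haem genes 22.2% were called. HEM12, for uroporphyrinogen decarboxylase, was lower (log2 change -0.37, adjusted p = 0.0010). HMX1, for the oxygenase that degrades haem, was higher (log2 change 0.94, adjusted p = 0.00063), from 10.17, 10.10, 9.78 and 9.57 to 10.68, 10.85, 10.78 and 11.08. Of 30 iron genes 10% were called. FRE5 (1.04, adjusted p = 0.0058, lost without 6 arrays) rose besides HMX1, and the low-affinity metal carrier gene FET4, dim at both levels, was lower (log2 change -1.16, adjusted p = 0.0011).

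Of 38 regulators of oxygen and carbon source genes, 3 were called higher and 3 lower (15.8% called, against 5.67% of all genes), with a median of -0.06. SUT1, which promotes sterol uptake, was the most changed. Its levels were 7.84, 7.67, 7.82 and 7.78 at 0.5% oxygen, and at 2.8% they were 8.58, 8.70, 9.22 and 10.77. All arrays at 2.8% oxygen were higher, but replicate 4 stood far above the rest, and the change was 1.54 with it (adjusted p = 0.0015) and 1.06 without it (adjusted p = 4.5e-05). Its relative SUT2 rose by 0.46 (adjusted p = 0.0020), with an adjusted p of 0.010 without replicate 1 at 0.5% oxygen. The 2 activators of genes for ethanol use were called in opposite directions. ADR1 rose by 0.47 (adjusted p = 0.0063) and CAT8 changed by -0.42 (adjusted p = 0.0072), and these calls were lost without 6 and 7 of the arrays, with adjusted p values of up to 0.027 and 0.036. The stress activator gene MSN4 was lower (log2 change -0.56, adjusted p = 0.0013), as was the heat shock factor gene HSF1 (log2 change -0.66, adjusted p = 0.0042, lost without 4 arrays). The haem-responsive activator gene HAP1 (-0.33, adjusted p = 0.076), the respiratory regulator HAP4 (-0.20, adjusted p = 0.23), the hypoxic repressor ROX1 (-0.13, adjusted p = 0.67), the sterol regulator UPC2 (-0.46, adjusted p = 0.095) and the glucose repressor MIG1 (-0.13, adjusted p = 0.39) did not pass the test.

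Several of the most changed genes were in none of the lists above. EEB1 encodes an acyltransferase that makes ethyl esters of medium-chain fatty acids. Its levels were 11.05, 11.06, 11.24 and 11.08 at 0.5% oxygen and 8.48, 8.62, 8.47 and 8.04 at 2.8% (log2 change -2.71, standard error 0.20, adjusted p = 7.2e-09), both groups being narrow and far apart. HMS1, for a helix-loop-helix protein that promotes pseudohyphal growth, was at 6.97, 6.65, 7.27 and 7.15 and became dim at 2.8% oxygen, at 3.87, 4.36, 4.42 and 4.92 (log2 change -2.62, adjusted p = 7.0e-10). PHD1, another activator of pseudohyphal growth, fell by 0.60 (adjusted p = 0.00014) as the single called gene of 15 for filamentous growth (6.67%, near the 5.67% of all genes). GAD1, glutamate decarboxylase, had levels of 9.58, 9.86, 9.79 and 9.48 and of 8.28, 8.12, 8.07 and 6.73 (log2 change -1.88, adjusted p = 1.2e-05). WSC4, for a membrane protein of the family of cell wall sensors, had levels of 9.39, 9.64, 9.37 and 8.88 and of 7.61, 7.77, 7.74 and 6.70 (log2 change -1.87, adjusted p = 5.8e-07). In GAD1 and WSC4 alike, replicate 4 was the low array at 2.8% oxygen, and without it the changes were -1.52 and -1.62.

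OPT2, an oligopeptide transporter gene, was at 8.52, 8.93, 8.27 and 8.27 and then dim at 5.90, 6.17, 6.40 and 5.91 (log2 change -2.41, adjusted p = 0.0049). Although the groups were far apart, its call was lost without any of 6 arrays, with an adjusted p of up to 0.019 without replicate 2 at 0.5% oxygen and of 0.011 without replicate 4 at 2.8%. The standard deviation of OPT2 was 0.31 at 0.5% and 0.24 at 2.8% oxygen but 1.64 at 0%, and the fit pools these. QDR2, a multidrug transporter gene, rose from 4.57, 5.00, 4.58 and 4.48 to 6.56, 6.53, 6.71 and 6.94 (log2 change 2.03, adjusted p = 7.2e-09). Both groups of QDR2 were dim on average, so the size of this change is uncertain. Single calls (log2 changes in brackets) came from the phosphate list with PHO89, a phosphate carrier (0.80), from the sulphur list with SUL1, a sulphate carrier (0.85), and from the zinc list with IZH1 (-0.79). They were 6.25% of 16, 4.17% of 24 and 9.09% of 11 genes, against 5.67% of all genes, and say little about these lists. The pheromone list of 32 genes gave PRM4 (log2 change 1.00, adjusted p = 2.9e-06) and KAR4 (0.37, adjusted p = 0.0068, lost without 5 arrays). Among 41 meiosis genes SPO22 was higher (0.68) and SPR3 (-1.01) and SPR6 (-0.38) lower, and among 33 cell cycle genes the mitotic cyclin gene CLB1 was lower (-0.72, adjusted p = 0.0053, lost without 5 arrays). The shares called in the pheromone, meiosis and cell cycle lists were 6.25%, 7.32% and 3.03%, near that of all genes. The mean of the meiosis list was 5.67 to 5.81 in the arrays of both levels, which is dim.

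Between 0.5 and 2.8% lies the level of 1.0% oxygen (6 arrays), which shows where on this interval the genes were. By the study's methods several samples at 1.0% oxygen came from a single culture, so the mean is weighted to that culture. It is not labelled which arrays these are. Of the 309 called genes, the mean at 1.0% oxygen lay nearer to that at 0.5% in 219 and nearer to that at 2.8% in 90. Without replicate 4 at 2.8% oxygen these numbers were 210 and 99. With all arrays, the median place of the mean at 1.0% was 0.39 of the way from 0.5 to 2.8%. The level of 1.0% oxygen is itself nearer to 0.5% than to 2.8%, and the 309 genes were selected by these same end levels. Whether the split differs from what this spacing alone would give was not tested. ATO3 was at 8.54 at 1.0% oxygen and HXT17 at 9.91, each near its value at 0.5%, while BAP3 was at 5.29 and PUT1 at 12.16, each nearer to its value at 2.8%. At 20.9% oxygen the genes went separate ways. FDH1 was at 13.80, ADH2 at 14.07 and HXT2 at 12.36, above their means at 2.8%. PUT1 (10.93) and PDR12 (11.33) were below theirs. TKL2, lower at 2.8% than at 0.5% oxygen, was at 12.16 at 20.9%, whereas EEB1 (8.44) and HXT17 (6.11) stayed near their level at 2.8%. These comparisons share arrays with the one reported here and are given as levels only.

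**Figure D5:**
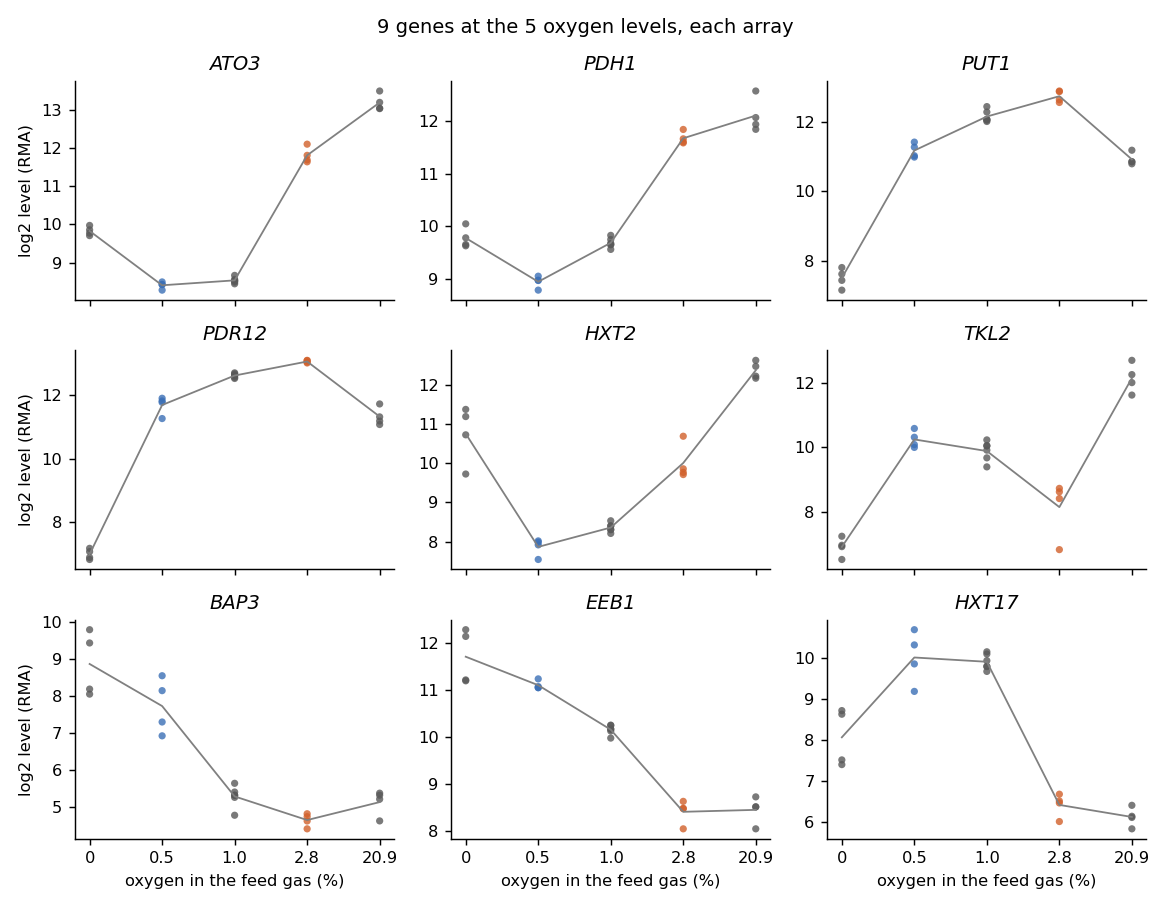
Log2 levels of 9 genes at the 5 oxygen levels (evenly spaced on the horizontal axis, not to scale), with a point for each of the 22 arrays, blue at 0.5% and orange at 2.8% oxygen, and a line through the means. ATO3 and HXT17 change between 1.0 and 2.8% oxygen, BAP3 mainly between 0.5 and 1.0%, and one orange point, replicate 4, lies away from the others for HXT2 (10.68) and TKL2 (6.81).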

How the data were processed

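Total RNA from chemostat samples was measured on GeneChip Yeast Genome 2.0 arrays, 1 per sample. The authors deposited log2 intensities obtained with RMA (background correction, quantile normalisation across arrays and 1 summary per probe set), which were used as deposited. The RMA version is not given in the sources used here, and detection calls were not used. Of 5716 probe sets, 5498 name 1 gene (12 symbols updated through RefSeq for S288C) and 218 none. Each of 5449 genes was represented by a single probe set, a gene-specific one first and then the brightest.

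Arrays were grouped by labelled oxygen level. 1 linear model with 5 levels as groups was fitted to 22 arrays with limma 3.58.1 in R 4.3.3, after the study's methods, and the contrast of 2.8% with 0.5% oxygen was adjusted by Benjamini-Hochberg over all genes and called under 0.01. The steps were tested on simulated data. Plots were drawn with Matplotlib 3.10.9 from tables written in pandas 2.3.3. The number of arrays limits the precision. Named were the 12 genes with the largest called, non-overlapping change in each direction, the regulators, and the called or most changed genes of 40 lists (not all are named). The gene lists and the comparison were chosen with earlier results of these data known. Alternatives were the 2 levels fitted alone, a replicate block, array weights, other variance estimates, 2 normalisations, other probe set rules, buffer-collected samples only, and each array left out in turn. Fits without both replicates 4, and of 2 levels without replicate 4 at 2.8% oxygen, were chosen after seeing the data, as was the place of the 1.0% mean without that array.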

Additional observations from a re-analysis of the deposited data

Results flagged for a closer look

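In 17 of the 128 groups of 4 arrays examined (24 named genes and 40 list means, at each of the 2 levels), 1 array was separated from the other 3 by more of the range than Dixon's 95% critical value allows. Chance flags about 1 in 20 groups, and the lists share genes, so these groups are not independent. Replicate 4 at 2.8% oxygen accounted for 14 of the 17. For named genes its log2 levels were 10.68 for HXT2 (9.71 to 9.85 in the other 3 arrays), 7.493 for OYE3 (8.23 to 8.27), 6.815 for TKL2 (8.41 to 8.72), 6.732 for GAD1 (8.07 to 8.28) and 6.695 for WSC4 (7.61 to 7.77).

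Among list means of the same array, that of the general stress response was 9.237 (10.09 to 10.24 in the other 3), trehalose and glycogen 9.553 (10.16 to 10.22), the pentose phosphate pathway 10.1 (10.59 to 10.67) and oxidative stress defence 10.27 (10.72 to 10.74). Protein folding was at 11.21 (11.45 to 11.48) and the respiratory chain at 12.36 (12.58 to 12.60). On the high side were ribosome biogenesis at 10.34 (9.25 to 9.36), amino acid synthesis at 11.58 (11.26 to 11.27) and sulphur amino acid metabolism at 11.3 (11.11 to 11.14). The part of the mode of collection in these values was not tested.

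At 0.5% oxygen, replicate 3 was apart for EEB1 at 11.24 (11.05 to 11.08), and replicate 4 for the means of ethanol and acetate metabolism at 10.14 (10.28 to 10.30) and of the TCA cycle at 12.22 (12.34 to 12.35).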

How the results depend on the processing

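No called gene changed direction under any alternative with 1 value per gene (all probe sets were compared by counts only). Counts below are genes called higher and lower, against 141 and 168. Leaving out 1 array gave 69 to 164 higher and 82 to 174 lower. The counts moved by over 1.5 times without replicate 1 (81 and 108), 2 (103 lower) or 3 (69 and 82) at 0.5% oxygen and without replicate 1 (84 higher) or 2 (90 higher) at 2.8%. Fitting the 2 levels alone gave 71 and 67, with 115 of the 309 genes called again. The same fit without replicate 4 at 2.8% oxygen, from fewer arrays still, gave 180 and 158. Buffer-collected samples alone gave 61 and 61. Array weights gave 870 and 866. A replicate block gave 64 and 87. The labels give no ground for pairing by number. Deviations of equal-numbered samples correlated at -0.08, 0.23, 0.30 and 0.58 and those of other pairs at -0.60 to 0.45, and replicates 1 and 2 at 0.5% oxygen did not correlate best with their own number, so the pairing remained undecided and the block was not used. The causes of the shifts under the fits of 2 levels, array weights and the block were not tested. Trend and robust variances, both normalisations, all probe sets, their mean, the fit without the dimmest 25% of genes, and the 2 fits chosen after seeing the data kept both counts within 1.5 times. Of 113 called genes named by rule, 42 were called under every alternative. The promoter motif share was not run. Signal limits genes that were dim at a level: 34 of the 309.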

Other observations

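Called genes outside the lists included the following, which were chosen after their values were seen. DAL3, for a ureidoglycolate lyase of allantoin breakdown, had levels of 8.70, 9.06, 8.15 and 8.30 at 0.5% and of 10.10, 9.96, 10.00 and 9.81 at 2.8% oxygen (log2 change 1.42, adjusted p = 0.0020). The call was lost without 1 of the 8 arrays (adjusted p = 0.012). DAL2, for allantoicase, and DCG1, both close to DAL3 in the reference, changed by 0.83 (adjusted p = 0.0077, lost without 7 arrays) and 0.75 (adjusted p = 0.0017, lost without 1). MEP1, an ammonium permease, rose from a range of 10.15 to 10.66 to one of 11.15 to 11.20 (log2 change 0.77, adjusted p = 0.0010), with a call kept without each array.

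MAL11, the maltose and trehalose carrier, was at 11.61, 12.10, 11.82 and 11.76 at 0.5% and at 10.71, 10.53, 10.58 and 9.84 at 2.8% oxygen (log2 change -1.41, adjusted p = 0.00076). MAL32, for maltase, on a probe set that matches several transcripts, changed by -0.98 (adjusted p = 0.0017), and IMA1, for isomaltase, by -0.74 (adjusted p = 0.00049). MPH2, a further maltose carrier, was dim at both levels and higher at 2.8% oxygen (log2 change 1.03, adjusted p = 2.1e-07). Of transporters that export polyamines, TPO1 fell by 1.07 (adjusted p = 7.2e-09), and TPO2 fell by 1.21 (adjusted p = 0.00068). The multidrug pump gene PDR15 was at 9.78, 10.05, 10.10 and 9.67 and then at 8.54, 8.41, 8.46 and 8.20 (log2 change -1.50, adjusted p = 1.7e-08). MPC1, for a subunit of the mitochondrial pyruvate carrier, was higher, at 10.42, 10.39, 10.66 and 10.51 against 9.67, 9.68, 9.60 and 9.59 (log2 change 0.86, adjusted p = 0.00037). All of these calls, from MAL11 on, were kept with each array left out.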
